A study of Mus musculus and Homo sapiens with 56 samples.

Results

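The Hox genes of the mouse lie in 4 clusters, A to D, and were taken as every row of the deposited RNA count table whose symbol is Hox followed by a cluster letter and a paralogue number. Of the 52459 genes in the table, 38 taken in this way are described, with 10 in cluster A, 10 in B, 9 in C and 9 in D. The RNA counts came from E14TG2a mouse embryonic stem cells, either wild type (WT, 2 libraries) or carrying D395A (2 libraries). D395A is a substitution that hits the catalytic site of METTL3, which places most of the N6-methyladenosine (m6A) in messenger RNA. Both lines were grown without feeder cells on gelatin, with the cytokine LIF, a MEK inhibitor and a GSK3β inhibitor, and were otherwise untreated. The sources used here do not say how many clones the D395A line stands for, or whether the libraries of a group came from separate cultures, so that a p-value measures the spread between these libraries, which may be technical. An m6A peak list was used for each genotype, made from immunoprecipitated chromatin RNA. For WT the labels give 2 immunoprecipitated and 2 input libraries, and for D395A 1 of each. The series also holds human cell samples and chromatin immunoprecipitation samples, which are not analysed here.

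Hox genes encode homeodomain transcription factors that give cells of the embryo their position along the head-to-tail axis. Within a cluster all Hox genes are read in the same direction, and paralogues with low numbers (the 3′ end) are switched on earlier and farther forward in the embryo than those with high numbers (the 5′ end). Retinoic acid, Cdx factors and the Trithorax proteins Kmt2a and Kmt2b favour their expression, Polycomb complexes hold them silent in embryonic stem cells, and Pbx, Meis and Pknox proteins bind DNA together with them. In the text below, paralogues 1 to 3 are called anterior (7 genes), 4 to 8 central (15 genes) and 9 to 13 posterior (16 genes). In mm10, the build of the files, the genes described in cluster A span chr6:52162417-52260880 on the minus strand. On the plus strand, those in cluster B span chr11:96194316-96368256, those in cluster C chr15:102921103-103036852 and those in cluster D chr2:74668310-74765142.

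Promoter windows, from 250 bases before to 50 bases after a start in RefSeq (GRCm38.p6, the same build), were at hand for 22 of the 38 genes, in 24 windows. A pair of anterior genes whose RNA was higher in D395A, Hoxa2 (window chr6:52164782-52165081, minus strand) and Hoxb1 (window chr11:96365508-96365807, plus strand), is shown first, with TGATNNAT in capitals, a form of the joint site of Hox and Pbx proteins, searched on both strands.
Hoxa2: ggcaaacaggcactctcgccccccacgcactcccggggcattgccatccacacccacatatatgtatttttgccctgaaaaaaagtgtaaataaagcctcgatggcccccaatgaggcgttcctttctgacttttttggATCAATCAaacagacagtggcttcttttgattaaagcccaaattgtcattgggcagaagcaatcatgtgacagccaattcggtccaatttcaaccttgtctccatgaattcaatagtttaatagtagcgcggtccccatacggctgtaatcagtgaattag
Hoxb1: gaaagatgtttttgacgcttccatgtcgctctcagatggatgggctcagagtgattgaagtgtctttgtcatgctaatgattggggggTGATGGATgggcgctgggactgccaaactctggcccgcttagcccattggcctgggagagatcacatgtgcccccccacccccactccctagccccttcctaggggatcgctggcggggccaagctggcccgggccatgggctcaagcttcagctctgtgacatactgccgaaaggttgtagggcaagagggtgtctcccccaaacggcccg
The motif lay in 4 of the 24 Hox windows (16.7%) and in 8.8% of all 32851 windows. Besides those shown, it lay in windows of Hoxb8 and Hoxd11, whose RNA was too low to be tested. The next window, that of Hoxa5 (chr6:52204538-52204837, minus strand), is shown because it alone held GGAC under a WT m6A peak. GGAC, the core letters of many m6A sites, is in capitals and was searched on the sense strand alone, and 291 bases of the window lay in the peak. The GGAC shown lies before the annotated start of Hoxa5, and so outside its annotated RNA.
Hoxa5: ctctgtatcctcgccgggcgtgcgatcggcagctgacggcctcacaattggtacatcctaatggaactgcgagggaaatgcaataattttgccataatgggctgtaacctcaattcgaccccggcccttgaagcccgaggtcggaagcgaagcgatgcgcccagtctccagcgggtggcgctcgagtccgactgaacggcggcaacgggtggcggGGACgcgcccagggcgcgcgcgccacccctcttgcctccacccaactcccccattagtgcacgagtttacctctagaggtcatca
A WT peak also reached into the windows of Hoxc4 (300 bases), Hoxa6 (120 bases), Hoxd10 (48 bases) and Hoxd13 (24 bases), with no GGAC under the peak. GGAC lay in 66.7% of the Hox windows and in 65.6% of all windows, and AGGTCA, the core letters bound by nuclear receptors searched on both strands, in 29.2% and 16.3%. TATAAA lay in 4.2% of the Hox windows on the sense strand and in 8.3% of all windows. None of these letter strings holds another of them. The Hox windows were rich in CpG, with a median of 14.5 CpG and a range of 4 to 45, against a median of 7.0 in all windows. These matches describe the letters only.

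The clusters also hold microRNAs, some of which are known to target Hox messages. The 4 shown fall into pairs with a shared seed (bases 2 to 8, in capitals), and were chosen because Mir196a-1, a gene for miR-196a-5p, changed in the RNA counts.
miR-196a-5p: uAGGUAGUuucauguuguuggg
miR-196b-5p: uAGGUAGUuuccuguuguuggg
miR-10a-5p: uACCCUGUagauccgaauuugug
miR-10b-5p: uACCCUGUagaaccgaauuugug
Counted from the 5′ end, miR-196b-5p differs from miR-196a-5p by A12C, and miR-10b-5p differs from miR-10a-5p by U12A. The row of Mir196a-1, between Hoxb13 and Hoxb9, held 27 and 24 counts in WT and 1 and 3 in D395A (edgeR quasi-likelihood test, adjusted p = 3.9e-05). Both D395A libraries lay below both WT libraries. Mir196b, Mir196a-2 and Mir10b had 0 counts in every library and Mir10a had 1 in all, in libraries made from total RNA that were not built for mature microRNAs.

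Library totals ran from 12743677 to 19246342 counts. Mettl3 itself had 36.2 and 35.5 CPM (the share of a library's counts, scaled by TMM) in WT and 30.6 and 33.9 in D395A (adjusted p = 0.114), which says nothing of a substitution. Of the 10 embryonic stem cell markers, 9 fell in D395A and 0 rose, beside 34.3% lower and 36.8% higher among all genes tested. The sum of these markers went from 6436 and 6334 CPM to 2756 and 2764 CPM. Those with the smallest adjusted p were Tdgf1 (8.1-fold lower), Dppa5a (4.1-fold), Klf4 (2.6-fold) and Zfp42 (2.5-fold). Sox2 did not pass the test, and Pou5f1 went from 482 and 503 CPM in WT to 308 and 272 CPM in D395A. The replicate libraries of D395A did not match each other over the Hox genes, and this bears on the results that follow. Among the 26 Hox genes with at least 20 counts over the pair, 14 (53.8%) were at least 2-fold higher in D395A replicate 1 than in replicate 2, against 2.31% of 17300 genes with as many counts. At 4-fold the shares were 30.8% of the Hox genes and 0.717% of all genes. No Hox gene was 2-fold lower in replicate 1, and in the WT pair 0 of 20 differed that far in either direction. Of all genes, 0.542% were 2-fold and 0.0871% were 4-fold higher in WT replicate 1.

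**Figure D1:**
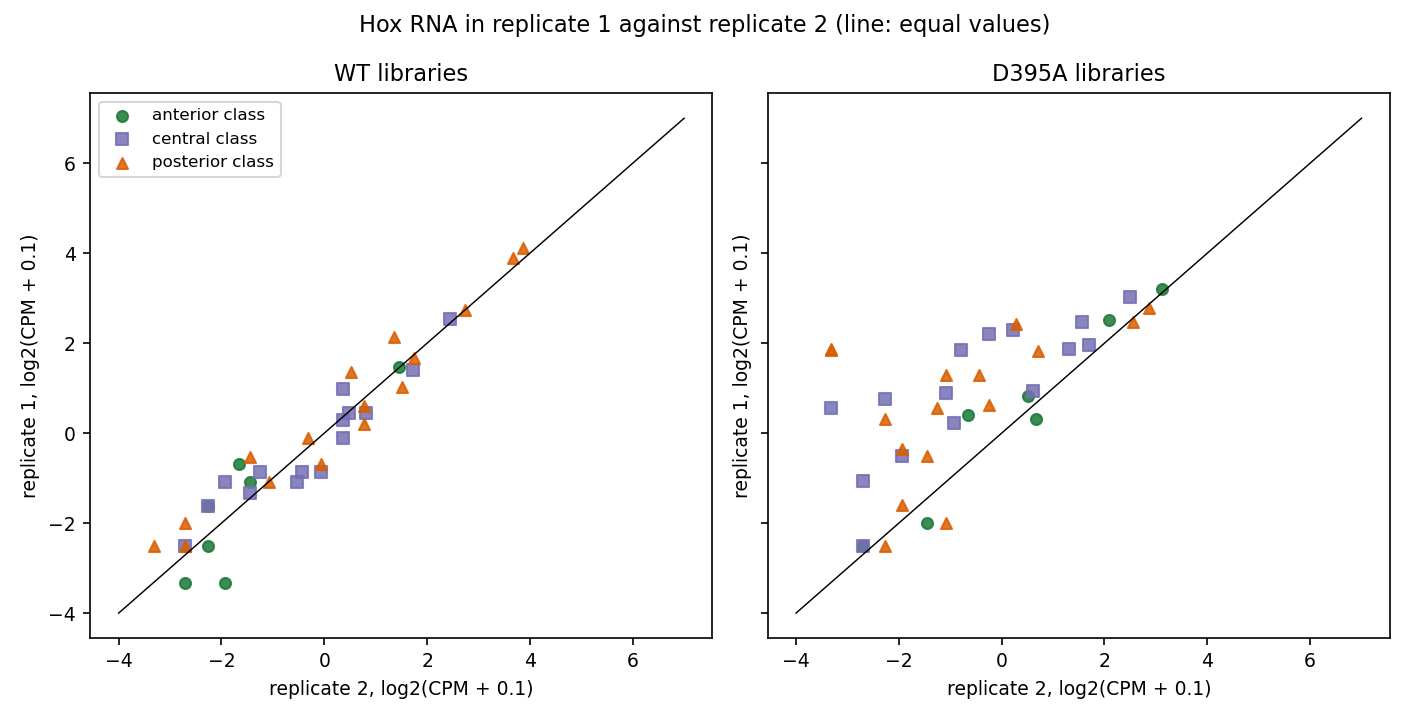
Level of each Hox gene, as log2(CPM + 0.1), in replicate 1 (vertical axis) against replicate 2 (horizontal axis) for WT (left) and D395A (right), with 1 point for each of the 38 genes, shaped by class. WT points lie along the line of equal values, and many central and posterior genes lie above it in D395A, while Hoxa2 and Hoxa3, the anterior genes with the highest levels, lie near it.

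By class, the excess in D395A replicate 1 was larger in the sums of central and posterior genes than in that of anterior genes, where Hoxb3 was 2.29-fold higher (1.22 and 0.532 CPM) and Hoxa2 and Hoxa3 outweighed it. Summed anterior genes stood at 19.0 CPM in replicate 1 and 16.4 CPM in replicate 2. Summed central genes stood at 42.4 and 18.9 CPM, and posterior genes at 38.4 and 18.8 CPM. Hoxd10 had 47 counts in replicate 1 and 0 in replicate 2, against 2 and 1 in WT. Hoxa11 had 46 and 0, with 1 and 1 in WT, and Hoxa11os, the gene read from its other strand, had 79 and 0. Hoxb5 had 21 and 2, and Hoxa6 had 18 and 0. In their sums, marker lists for other cell types did not separate these libraries to that extent, though single markers could. The 11 fibroblast markers summed to 24.0 CPM in replicate 1 and 18.0 in replicate 2, the 10 markers of posterior mesoderm and neural tube to 36.6 and 31.6, and the 7 endoderm markers to 52.5 and 58.4. Among the fibroblast markers, Prrx1 had 0 and 0 counts in WT and 36 and 6 in D395A (2.74 and 0.319 CPM). Twist1 had 6.01 and 3.14 CPM in D395A, while Dcn (2.13 and 1.65) and Acta2 (6.85 and 7.12) were closer. Afp was at 0 counts in every library, and the part of other cells in the Hox values was not tested. In bulk libraries, fewer cells that express a gene and less RNA per cell cannot be told apart.

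Summed over the 38 genes, Hox RNA came to 76.5 and 70.5 CPM in the WT libraries, and D395A gave 99.8 and 54.1 CPM, on either side of WT. The clusters did not move together. The 10 genes of cluster A went from 9.26 and 10.4 CPM to 34.9 and 21.1 CPM. Cluster C, the most abundant in WT, went from 47.7 and 42.5 CPM to 35.9 and 15.7 CPM. Cluster B stood at 11.6 and 10.4 CPM in WT and 16.4 and 12.0 CPM in D395A, and cluster D at 7.92 and 7.19 CPM and 12.6 and 5.32 CPM. The D395A libraries lay above both WT libraries in clusters A and B and below both in cluster C, while in cluster D they lay on either side. With 2 libraries against 2, an exact permutation test of such a sum cannot go below p = 0.333 (two-sided).

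Levels per kilobase of exon gave the order of the genes. In WT, Hoxc12 was highest at 13.2 CPM per kb (12.2 to 14.3 in the 2 libraries), followed by Hoxc13 at 6.42 (5.87 to 6.98), Hoxb9 at 2.55 (2.54 to 2.55) and Hoxc4 at 2.14 (2.07 to 2.21). The ranges of these 4 genes did not overlap, but that of Hoxc4 overlapped the range of Hoxc11 (1.22 to 2.14). In D395A, Hoxa2 stood at 2.75 CPM per kb (2.34 to 3.17), from 0.181 in WT (0.151 to 0.211), and Hoxc12 at 0.424 (0.258 to 0.590). The ranges of Hoxa2, Hoxb9 (2.63 to 2.79), Hoxc4 (2.17 to 3.14) and Hoxa5 (1.53 to 2.92) overlapped. So did those of Hoxc4, Hoxa5 and Hoxc13 (2.23 to 2.33). The order of these 5 genes is thus only partly resolved, with Hoxc13 below Hoxb9 and narrowly below Hoxa2.

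**Figure D2:**
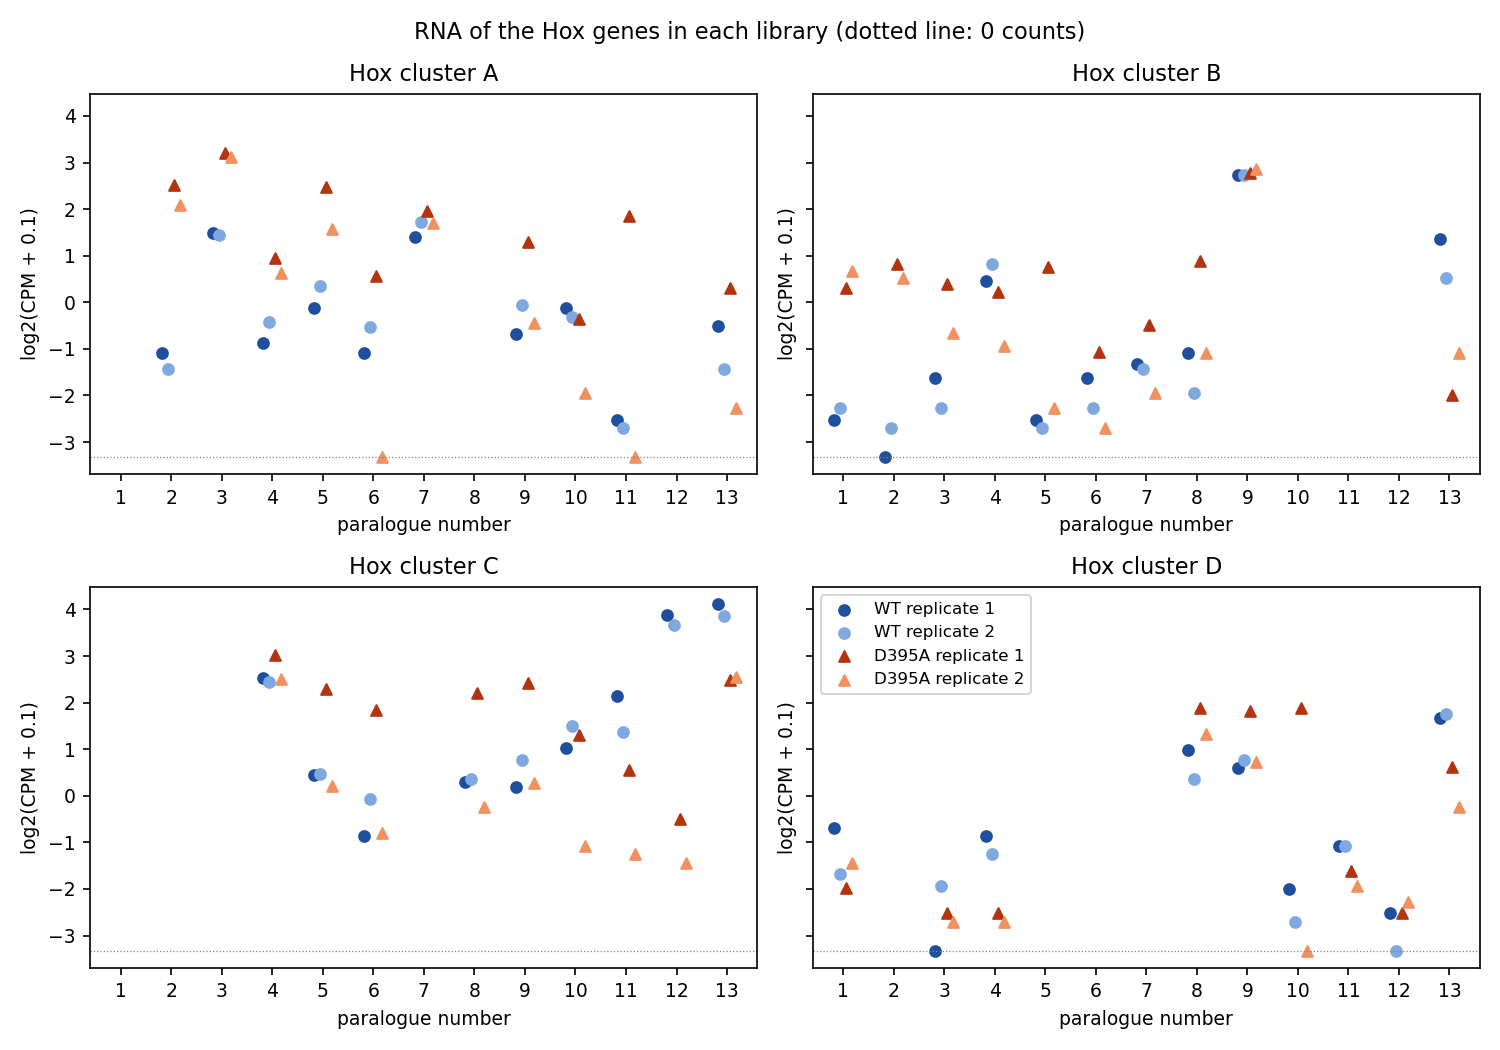
Level of each Hox gene as log2(CPM + 0.1) by paralogue number, in a panel for each cluster, with circles for the WT and triangles for the D395A libraries and a dotted line at 0 counts. Triangles lie above circles at the anterior paralogues of clusters A and B, circles lie above triangles at paralogues 11 to 13 of cluster C, and D395A replicate 1 lies above replicate 2 over much of the middle.

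Of the 38 genes, 24 had enough counts to be tested. In D395A, 7 of these rose and 6 fell in the quasi-likelihood test of edgeR, at a threshold of 0.05 on p-values adjusted by Benjamini-Hochberg over all 17778 genes tested. Across all genes tested, 36.8% were higher and 34.3% lower, 71.1% in all, so that the share of Hox genes called (13 of 24) was not above that of the table. The 24 genes had a median log2 fold change of 0.81, and all genes tested a median of 0.0029. The Hox median leans on D395A replicate 1, without which several log2 fold changes above 0 went below it (values at the end of this paragraph). By class, the 4 anterior genes tested here rose, 3 central genes rose and 1 fell of 9, and 5 posterior genes fell and 0 rose of 11. Within the posterior class, the 5 tested genes with paralogue numbers 11 to 13 fell, and none of the 6 tested genes with numbers 9 and 10 passed. The count filter bears on these directions, since a gene low in one group enters only if it is high in the other. Of the genes that rose, Hoxa2, Hoxa4, Hoxb1 and Hoxb2 entered through D395A alone, and of those that fell, Hoxb4, Hoxb13, Hoxc11 and Hoxc12 entered through WT alone. Of the 12 genes that passed the filter in each group by itself, Hoxa3, Hoxa5 and Hoxd8 rose, Hoxc13 and Hoxd13 fell and 7 were not called. By cluster, 4 genes rose and 0 fell of 7 tested in A, 2 rose and 2 fell of 5 in B, 0 rose and 3 fell of 9 in C, and 1 rose and 1 fell of 3 in D. Without D395A replicate 1, the log2 fold change went below 0 in Hoxc5 (−0.24), Hoxc6 (−0.49), Hoxc8 (−0.60), Hoxc9 (−0.27) and Hoxa9 (−0.14). It kept its sign in the other tested Hox genes. Without D395A replicate 2, the values of these named genes were 1.90, 2.34, 1.95, 1.94 and 1.71. With 2 libraries, it cannot be told which D395A replicate stands apart.

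**Figure D3:**
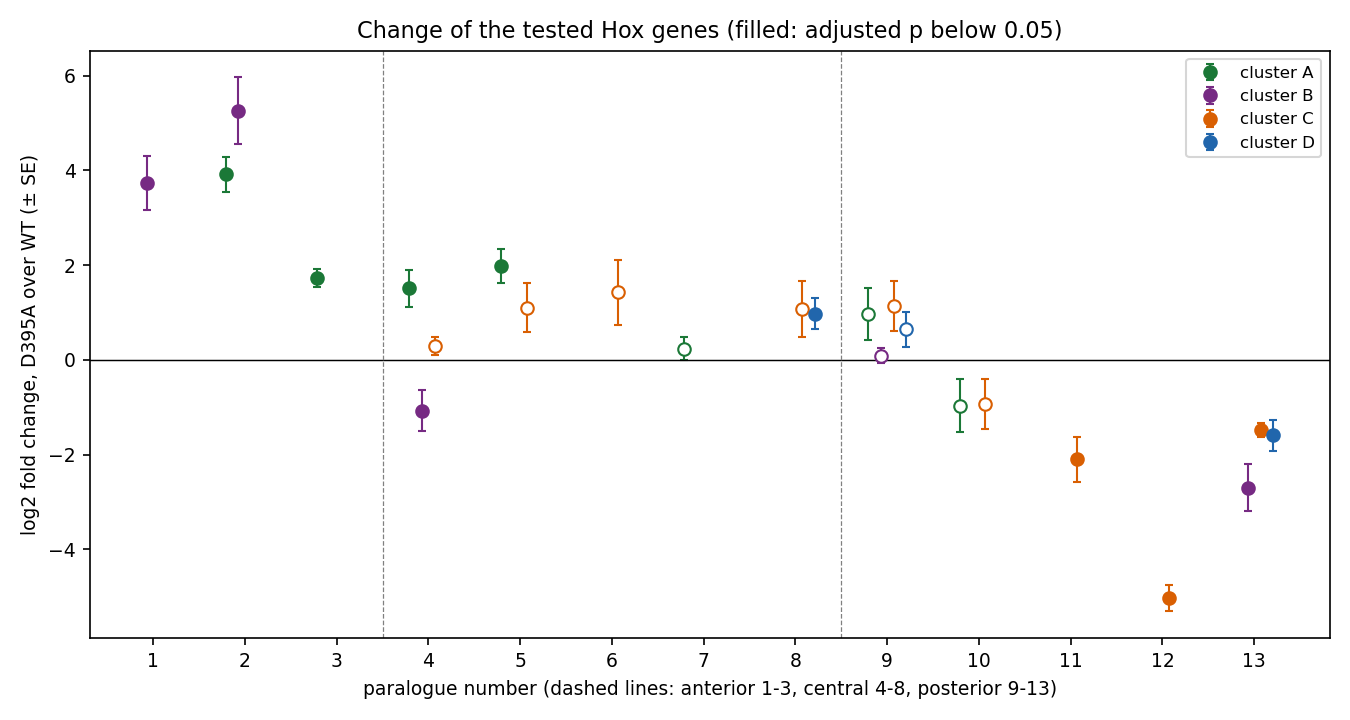
Log2 fold change of D395A over WT (± SE from the edgeR fit) for the 24 tested Hox genes, by paralogue number and coloured by cluster, with filled points for an adjusted p below 0.05. Filled points are above 0 at paralogues 1 to 3 and below 0 at 11 to 13, and the points at 9 and 10 are open.

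Hoxa2, which patterns the hindbrain and the second pharyngeal arch, had 5 and 5 counts in WT and 74 and 78 in D395A, a 15.1-fold rise (adjusted p = 2.75e-07). No gene on the other strand overlaps it. Hoxa3, needed for the thymus and parathyroid, had 36 and 49 counts in WT and 120 and 161 in D395A, a 3.31-fold rise (adjusted p = 1.06e-06). Its annotated body reaches over Hoxa4, Hoxa5 and Hoxa6, and 25.4% of its exon bases lie opposite exons of 4 genes on the other strand.

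Hoxb1, which marks the fourth segment of the hindbrain, had 1 and 2 counts in WT and 15 and 28 in D395A, a ratio of 14.4 scaled by library size (95% counting interval 4.60 to 72.4). It rose (adjusted p = 3.69e-05), and no opposite-strand gene overlaps it. Hoxb2, a target of Hoxb1 and of Egr2 in the hindbrain, had 0 and 1 counts in WT and 22 and 25 in D395A, a ratio of 47.1 (8.05 to 1899), and also rose (adjusted p = 1.07e-05). Of its exon bases, 27.3% lie opposite Hoxb3os, which had 5 and 13 counts in D395A. These WT levels are near the limit of detection. Hoxb3 was too low to be tested, with 3 and 2 counts in WT and 16 and 10 in D395A, and 52.9% of its exon bases lie opposite Hoxb3os.

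The anterior genes of cluster D were too low to be tested. Hoxd1 had 7 and 4 counts in WT and 2 and 5 in D395A, and Hoxd3 had 0 and 3 and then 1 and 1. The groups overlap for both, and 62.3% of the exon bases of Hoxd3 are shared with other genes on its own strand. There is no anterior gene in cluster C, which starts at paralogue 4.

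Among the central genes, Hoxa5 and Hoxa4 rose beside the anterior genes of cluster A. Hoxa5, needed in the lung and in neck vertebrae, had 11 and 22 counts in WT and 72 and 54 in D395A, a 3.95-fold rise (adjusted p = 0.000186). Hoxa4 had 6 and 12 counts in WT and 24 and 27 in D395A, a 2.85-fold rise (adjusted p = 0.00324), with 16.0% of its exon bases opposite Gm29430. It did not pass in DESeq2 (adjusted p = 0.1). Hoxa7, with 34 and 60 counts in WT and 50 and 59 in D395A, did not pass (adjusted p = 0.398).

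Hoxd8 had 25 and 22 counts in WT and 47 and 45 in D395A, a 1.97-fold rise (adjusted p = 0.0146). It was not called without WT replicate 2 (adjusted p = 0.149), without D395A replicate 1 (adjusted p = 0.0561) or in DESeq2 (adjusted p = 0.153). Hoxb4, known for expanding blood stem cells, had 17 and 31 counts in WT and 14 and 8 in D395A and fell 2.11-fold (adjusted p = 0.038). It was not called without WT replicate 2 (adjusted p = 0.157), without D395A replicate 2 (adjusted p = 0.363) or in DESeq2 (adjusted p = 0.333). It was the only central gene called lower.

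Cluster C had 4 central genes, all tested and none called in the edgeR test above. Hoxc4 had 5.68 and 5.31 CPM in WT and 8.06 and 5.58 CPM in D395A (adjusted p = 0.199). Hoxc5 had 1.27 and 1.29 CPM in WT and 4.79 and 1.06 CPM in D395A, Hoxc6 had 0.448 and 0.859 CPM and 3.50 and 0.479 CPM, and Hoxc8 had 1.12 and 1.18 CPM and 4.49 and 0.744 CPM. In each of these last 3 genes only D395A replicate 1 was above WT. Their log2 fold changes were 1.10, 1.43 and 1.08 with both D395A libraries and −0.24, −0.49 and −0.60 without replicate 1. Fits to all libraries with no count filter, or with replicate number as a block, called these 3 genes higher.

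Posterior genes with the highest numbers are switched on last in the embryo, at its tail end and in the limb and genital buds. Hoxc12 (chr15:102936757-102938609), the Hox gene with the highest level per kilobase in WT, had 197 and 235 counts in WT and 8 and 5 in D395A. It fell 32.7-fold (log2 fold change −5.03 ± 0.27 SE, adjusted p = 7e-10). Hoxc13 (chr15:102921103-102928814), which acts in hair and nails, had 230 and 269 counts in WT and 72 and 108 in D395A, a 2.79-fold fall (adjusted p = 3.49e-07). Hoxc11 had 58 and 46 counts in WT and 18 and 6 in D395A, a 4.29-fold fall (adjusted p = 0.00103). In all 3 genes both D395A libraries lay below both WT libraries, but Hoxc11 and Hoxc12 had passed the count filter through WT alone. The share of all genes with such a gap was not computed.

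Hoxb13, known for its role in the prostate and tail, had 33 and 25 counts in WT and 2 and 7 in D395A, a 6.47-fold fall (adjusted p = 0.000243). Hoxd13, which shapes the digits, had 41 and 61 counts in WT and 19 and 14 in D395A, a 3.02-fold fall (adjusted p = 0.000571). The fourth gene of paralogue 13, Hoxa13, was too low to be tested, with 8 and 5 counts in WT and 15 and 2 in D395A. Its D395A libraries lay on either side of WT. None of the 6 genes called lower shares exon bases with a gene on the other strand, and 3 of the 7 called higher do. Of the 20 tested Hox genes without such overlap, 4 rose (Hoxa2, Hoxa5, Hoxb1 and Hoxd8) and 6 fell, beside 32.3% higher and 37.1% lower among all such genes.

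No gene of paralogues 9 and 10 was called in the edgeR test above. Other fits to all libraries did call some. Limma-voom called Hoxc10 lower, and edgeR with replicate number as a block called Hoxc10 lower and Hoxc9 higher. With no count filter, Hoxc10 was called lower and Hoxa9 and Hoxc9 higher. Hoxb9 had 88 and 122 counts in WT and 89 and 135 in D395A, with a log2 fold change of 0.09 ± 0.16 SE (adjusted p = 0.614). Hoxc9 had 1.05 and 1.61 CPM in WT and 5.25 and 1.12 CPM in D395A (adjusted p = 0.0705), and Hoxa9 had 7 and 16 counts and 31 and 12 counts (adjusted p = 0.123). Hoxd9 had 19 and 30 counts in WT and 45 and 29 in D395A (adjusted p = 0.133). In Hoxc9, Hoxa9 and Hoxd9 replicate 1 was high in D395A and replicate 2 lay within the WT range.

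Hoxc10 had 26 and 51 counts in WT and 31 and 7 in D395A (adjusted p = 0.122), and Hoxa10 had 11 and 13 and then 9 and 3 (adjusted p = 0.141). Without D395A replicate 1 both were called lower, with adjusted p = 3.01e-07 for Hoxc10 and 0.0105 for Hoxa10. In Hoxc10 only replicate 2 of D395A was below both WT libraries.

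The other untested genes were low throughout. Hoxb6 had 1 to 5 counts and Hoxb7 3 to 8 in any library. Hoxb8 had 5 and 3 in WT and 23 and 7 in D395A. In cluster D, Hoxd4 had 6 and 6 counts in WT and 1 and 1 in D395A, with 52.3% of its exon bases shared with other genes on its own strand, Hoxd11 had 5 and 7 and then 3 and 3, and Hoxd12 had 0 to 2. In total 14 of the 38 genes were not tested, and 6 of these had 3 or fewer counts in at least 1 group. Fitted with no count filter, Hoxa11, Hoxb3, Hoxb5, Hoxb8 and Hoxd10 were called higher, and in each of these D395A replicate 1 was above replicate 2. For Hoxd4 the ratio of D395A to WT counts, scaled by library size, was 0.167 (95% counting interval 0.0182 to 0.750).

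The m6A peaks over the clusters were far fewer in the D395A list than in the WT list. The WT list held 50 peaks over the 4 cluster spans, of which 13 lay in A, 10 in B, 17 in C and 10 in D. The D395A list held 6, of which 2 lay in A, 2 in B, 2 in C and 0 in D. A WT peak lay over the body of 26 of the 38 genes and a D395A peak over 2. Of all 52459 genes, 28.1% had a WT peak and 20.4% a D395A peak. Among genes with enough RNA counts to be tested, 66.5% had a WT peak (18 of the 24 Hox genes) and 52.6% a D395A peak (2 of the 24). Among untested genes 8.41% had a WT peak (8 of the 14 Hox genes). The lists are not alike in stringency: all 48445 WT peaks reach a q of 0.05, and 5275 of the 38823 D395A peaks (13.6%) do. None of the 6 D395A peaks reached it, the highest having a −log10 q of 1.16, while 6.38% of all genes had a D395A peak that did. With 1 list per genotype and no counts behind the peaks, this difference carries no test.

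**Figure D4:**
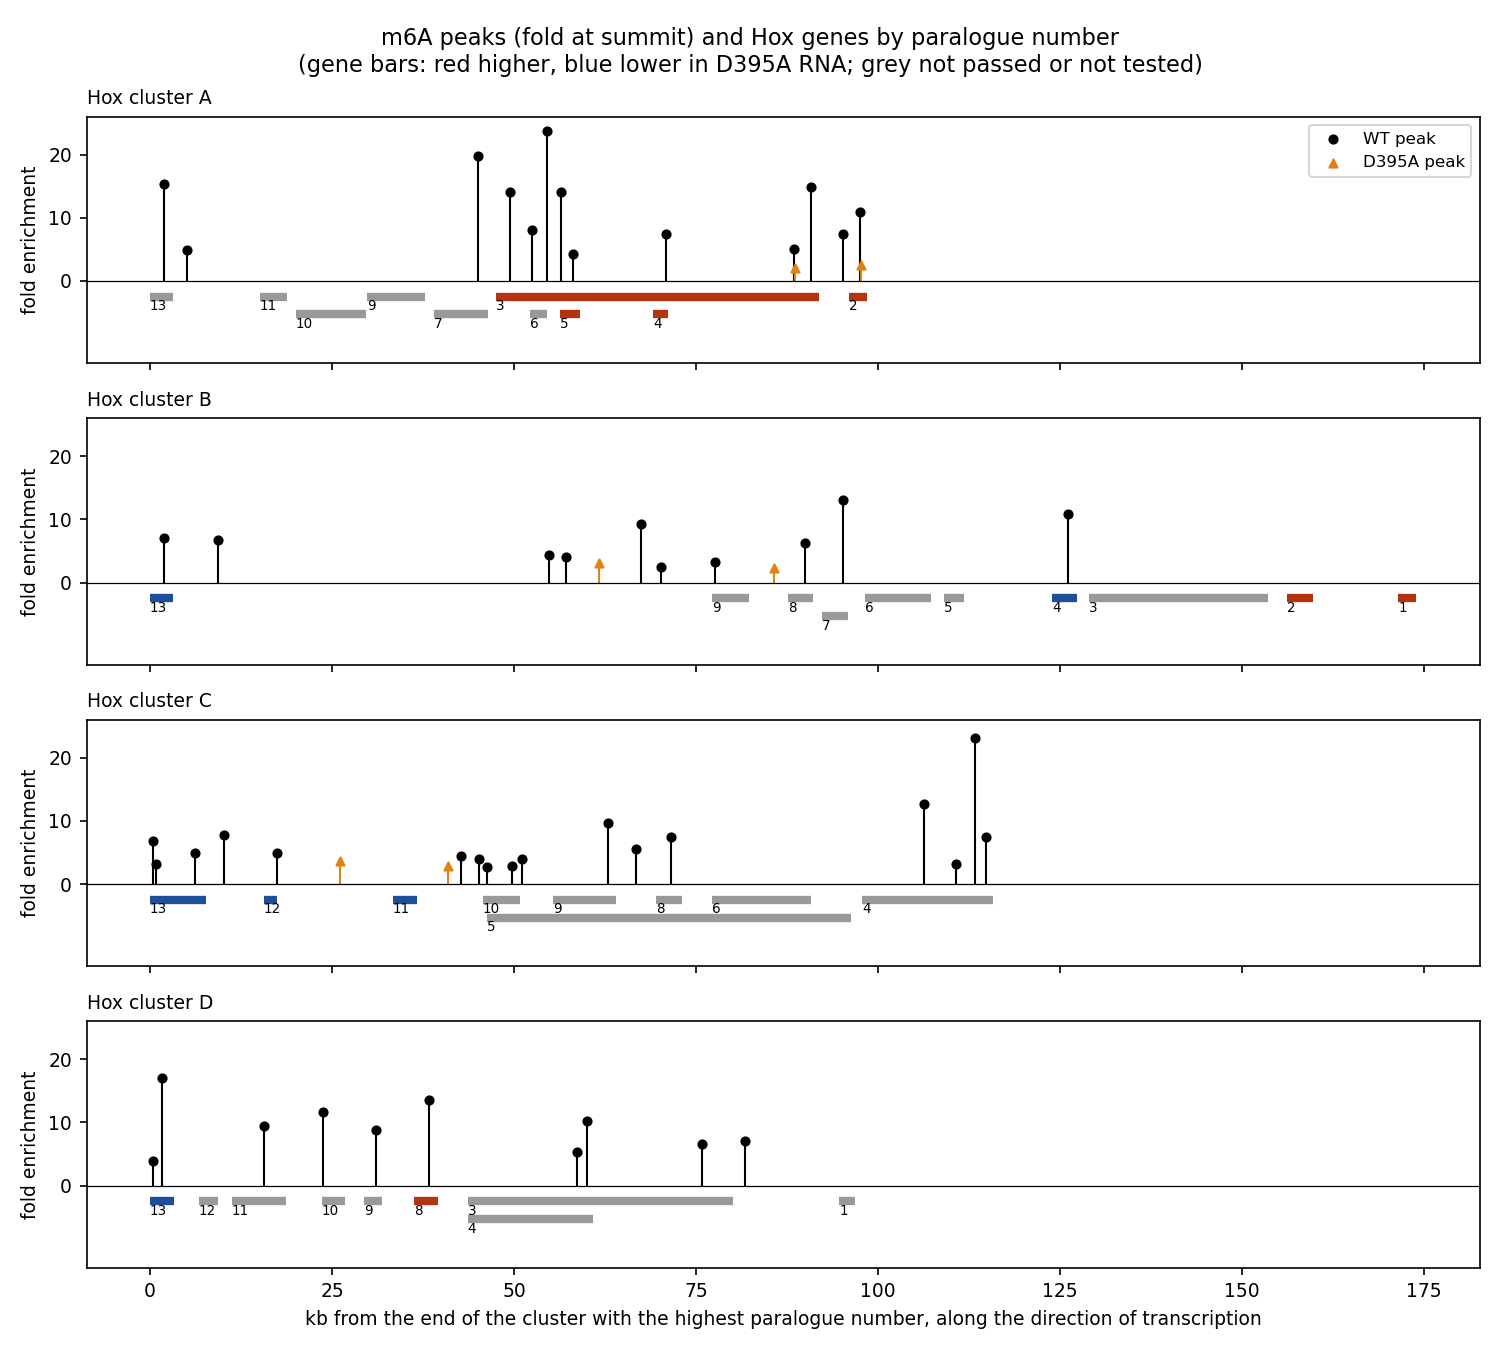
Fold enrichment at the summit of each m6A peak (vertical axis, the authors' values) along each Hox cluster (horizontal axis, kb from the 5′ end), with circles for WT and triangles for D395A peaks and bars for the Hox genes with their paralogue numbers. WT peaks lie over all 4 clusters and reach 23.8-fold, and the 6 D395A peaks stay at or under 3.68-fold.

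The authors' fold enrichment of WT peaks over Hox genes ran from 2.75 to 23.8 with a median of 7.46, across 39 peaks. Of these, 34 had their summit in an exon of a Hox gene and 22 in its last exon, where m6A is known to gather near the stop codon. The highest was over the last exon of Hoxa6 (chr6:52205195-52206657, 23.8-fold), a gene with 5 and 11 counts in WT, and the next over Hoxc4 (chr15:103033617-103035063, 23.1-fold). Other high WT peaks lay over Hoxa7 (19.7-fold), Hoxd13 (17.0-fold), Hoxa13 (15.4-fold) and Hoxa3 (14.8-fold). A peak held the annotated start of 4 genes: Hoxa5 (14.0-fold), Hoxd10 (11.6-fold), Hoxa6 (8.06-fold) and Hoxd13 (3.86-fold). The window of Hoxa5 is the one printed above. At 7 of the 39 peaks a gene on the other strand also lay under the peak, Hoxaas3 at those between Hoxa4 and Hoxa7 and Hoxd3os1 at Hoxd8, so that the strand that gave the peak is not resolved.

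Peaks and RNA did not line up in a simple way. Of the 7 genes that rose, 5 had a WT peak (Hoxa2, Hoxa3, Hoxa4, Hoxa5 and Hoxd8), and of the 6 that fell, 5 did (Hoxb4, Hoxb13, Hoxc12, Hoxc13 and Hoxd13). Hoxb1, Hoxb2 and Hoxc11 had no WT peak. The 2 Hox genes under a D395A peak were Hoxa2 (2.54-fold) and Hoxa3 (2.08-fold). At Hoxa2 and Hoxa3 the D395A peak overlapped a WT peak of 10.9-fold and 5.12-fold. The remaining D395A peaks lay between genes or over Gm53 and Hotair.

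Among all genes tested, 36.8% were higher and 34.3% lower. Of the 41 other genes inside the spans given above, 6 were tested, 4 of which rose and 2 fell. All that rose lie in cluster A on the strand opposite to the Hox genes: Hoxaas2 (3 and 0 counts in WT, 38 and 54 in D395A), 5730596B20Rik (0 and 1, then 29 and 43), Gm15050 (5 and 4, then 35 and 45) and Hoxaas3 (7 and 8, then 17 and 24). Of these, 3 share exon bases with genes on the other strand. The non-coding RNA Hotairm1 had 8 and 6 counts in WT and 100 and 112 in D395A, and 19.3% of its exon bases lie opposite exons on the other strand. The 2 that fell lie between Hoxb13 and Hoxb9. Gm53 had 57.1 and 55.3 CPM in WT and 9.74 and 10.3 CPM in D395A (5.58-fold lower, adjusted p = 7.7e-12), with 3 WT peaks, and Mir196a-1 is given above. Hotair, the non-coding RNA between Hoxc11 and Hoxc12, had 0 and 0 counts in WT and 4 and 3 in D395A, Hottip 0 in WT and 1 and 0, and Haglr 1 and 1 and then 3 and 3, all too low to test. Hoxd3os1 (3 and 2, then 5 and 1), Hoxb5os (2 and 0, then 1 and 0) and Mir615 (0 and 0, then 6 and 0) were likewise not tested. Halr1, outside the clusters, had 18.5 and 17.3 CPM in WT and 19.3 and 19.7 CPM in D395A and did not pass (adjusted p = 0.259).

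Genes next to the clusters changed in both directions. On the Hoxb13 side of cluster B, Ttll6, a tubulin-modifying enzyme and the nearest gene, had 13.3 and 13.2 CPM in WT and 3.19 and 2.55 in D395A (4.66-fold lower, adjusted p = 2.44e-08). Calcoco2, an autophagy receptor farther out, had 78.7 and 82.4 CPM in WT and 6.92 and 6.54 in D395A (12.0-fold lower, adjusted p = 3.35e-13). Hoxb13, Gm53 and Mir196a-1, which follow inside the cluster, fell as given above. At the Hoxb1 side, Skap1 was not tested (1 to 3 counts), and Snx11 beyond it fell (2.64-fold, adjusted p = 6.39e-07). Beside cluster C, Calcoco1 fell 1.26-fold and Smug1 rose 1.39-fold, and Copz1 farther out fell 1.47-fold (adjusted p = 1.83e-06). Beside cluster D, Mtx2 did not pass (adjusted p = 0.0606), and Evx2 had 0 counts. Of the 17 flanking genes tested, 5 rose and 10 fell, with a median log2 fold change of −0.22. Among all genes tested, 36.8% were higher and 34.3% lower.

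Genes that act with or upstream of Hox genes were taken as lists. The counts of these lists, and of the cell markers further below, stand beside 36.8% higher and 34.3% lower among all genes tested. Of 8 cofactors, all tested, 5 rose and 2 fell, with a median log2 fold change of 0.67. Meis1, which binds DNA beside Hox proteins, had 2.46 and 2.09 CPM in WT and 12.7 and 9.52 in D395A (4.86-fold, adjusted p = 1.86e-07), Pbx3 had 10.9 and 9.93 and then 35.2 and 32.5 CPM (3.26-fold, adjusted p = 1.66e-09), and Pbx2 rose 1.99-fold (adjusted p = 2.29e-08). Meis2 and Pbx4 fell 1.44-fold and 1.41-fold. Of 8 tested activators, 5 rose and 2 fell, with a median of 1.11. Cdx2, a homeodomain activator of central Hox genes, had 12 and 14 counts in WT and 52 and 61 in D395A (4.35-fold, adjusted p = 2.53e-05), and Gdf11, a signal that turns on posterior Hox genes, rose 3.18-fold (adjusted p = 4.77e-07). Cdx1 fell 1.57-fold (adjusted p = 1.87e-06) and Men1 rose 1.47-fold (adjusted p = 7.07e-06). Kmt2a fell 1.16-fold (adjusted p = 0.0149), and Kmt2b did not pass.

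**Figure D5:**
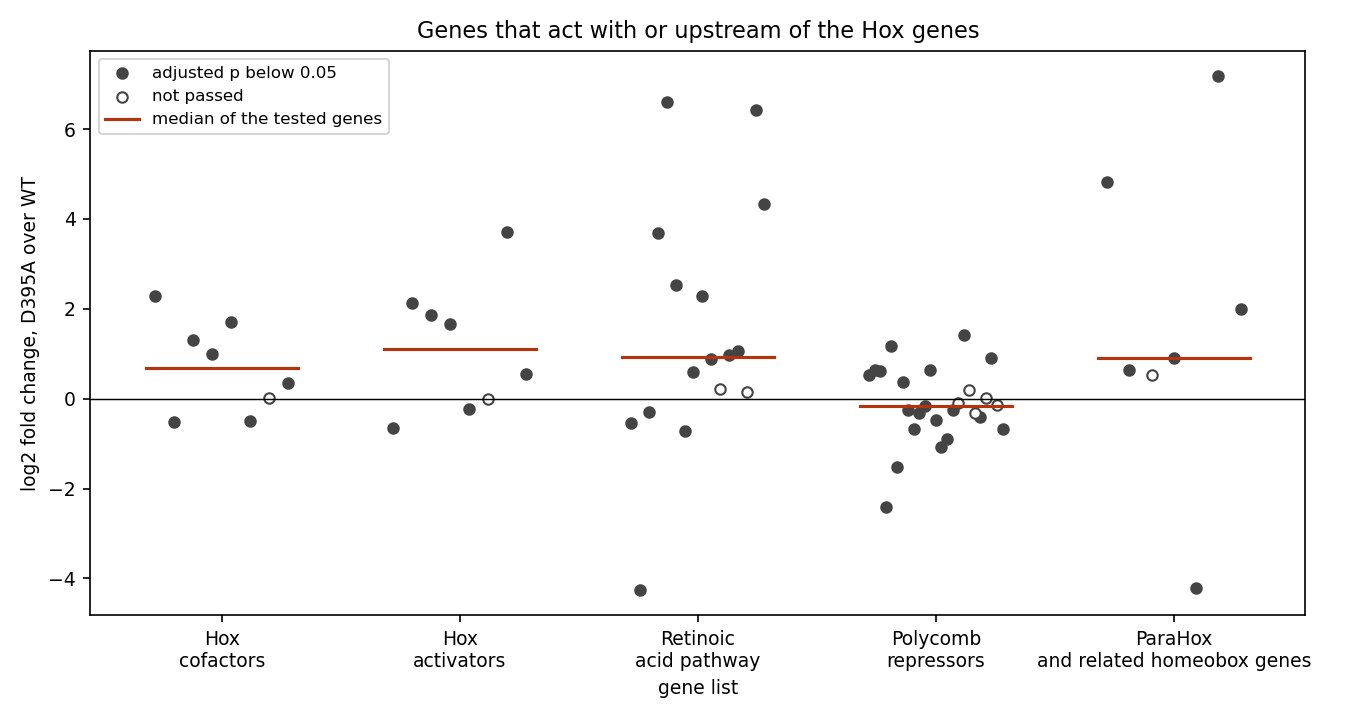
Log2 fold change of D395A over WT for every tested gene of 5 lists around the Hox genes, with filled points for an adjusted p below 0.05 and a bar at the median of each list. The medians are 0.67 for cofactors, 1.11 for activators, 0.93 for the retinoic acid pathway, −0.16 for Polycomb repressors and 0.91 for related homeobox genes.

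In the retinoic acid pathway 10 of 16 tested genes rose and 4 fell, with a median of 0.93. Stra6, the cell surface receptor that takes up retinol, had 6 and 7 counts in WT and 460 and 683 in D395A (86.2-fold, adjusted p = 6.94e-13). Stra8, a germ cell gene induced by retinoic acid, had 9.56 and 9.28 CPM in WT and 211.3 and 169.0 CPM in D395A (20.1-fold, adjusted p = 5.05e-13). Crabp2, which carries retinoic acid to the nucleus, had 9 and 20 counts in WT and 153 and 222 in D395A (12.9-fold, adjusted p = 2.64e-09), and the receptor Rxra rose 2.07-fold (adjusted p = 8.17e-09). Those that fell include the synthesis enzymes Aldh1a3 (37 and 43 counts in WT, 1 and 3 in D395A) and Aldh1a2 (60 and 90, then 47 and 55). Rdh10, which also acts in synthesis, rose (60 and 74 counts in WT, 113 and 149 in D395A, adjusted p = 0.00016). Of the 16 genes, Rarb alone shares exon bases with a gene on the other strand (38.4%).

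Of 25 Polycomb genes, all tested, 8 rose and 12 fell, with a median of −0.16. Cbx7, a subunit that reads H3K27me3, had 173.6 and 169.0 CPM in WT and 32.0 and 32.6 CPM in D395A (5.30-fold lower, adjusted p = 7.45e-13). Eed, a core subunit of the enzyme that writes that mark, fell 2.89-fold (adjusted p = 4.72e-11), Pcgf2 fell 1.86-fold (adjusted p = 4.09e-08), and Phc2 rose 2.68-fold (adjusted p = 1.92e-10). Of 7 tested related homeobox genes outside the clusters, 5 rose and 1 fell. Meox1 had 0 and 0 counts in WT and 13 and 23 in D395A (adjusted p = 1.89e-05), En1 1 and 0 and then 15 and 20 (adjusted p = 4.87e-05), and Gbx2 rose 1.88-fold (adjusted p = 8.69e-08). Gsx2 fell, with 10 and 32 counts in WT and 0 and 2 in D395A (adjusted p = 0.000172).

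Markers of cells that express Hox genes in the embryo moved in both directions. Of 6 tested markers of posterior mesoderm and neural tube, 3 rose and 2 fell. T, the defining factor of the primitive streak, had 253 and 264 counts in WT and 3 and 3 in D395A (83.8-fold lower, adjusted p = 2.08e-10), and Nkx1-2, of tail end progenitors, fell 15.6-fold (adjusted p = 2.78e-12). Pax6, of the neural tube and eye, had 5 and 7 counts in WT and 198 and 302 in D395A (40.8-fold, adjusted p = 6.69e-11), and Sox1 rose 1.58-fold (adjusted p = 0.00502). Of 5 tested endoderm markers 2 rose and 1 fell, from a summed 15.8 and 15.4 CPM in WT to 52.5 and 58.4 CPM in D395A. Foxa2 had 5 and 3 counts in WT and 353 and 541 in D395A (adjusted p = 4.29e-12), Dab2 rose 4.86-fold (adjusted p = 2.93e-09), and Gata4 fell 4.78-fold (adjusted p = 2.86e-07). Of 8 tested fibroblast markers 3 rose and 2 fell. Dcn had 0 and 0 counts in WT and 28 and 31 in D395A (adjusted p = 3.02e-06), Acta2 rose 3.74-fold (adjusted p = 2.32e-06) and Twist1 2.89-fold (adjusted p = 0.000713), and Col1a1 fell 2.60-fold (adjusted p = 0.000237). The summed level of these fibroblast markers was 13.8 and 14.2 CPM in WT. The part of such cells in the Hox values was not tested. Opposite-strand genes also overlap exon bases of other called genes given with values from the lists outside the clusters. The shares are 43.5% in Gbx2, 16.6% in Nkx1-2, 16.2% in Snx11, 14.1% in Pou5f1, 8.51% in Meis1, 6.82% in Eed, 2.27% in Kmt2a and 1.54% in Cbx7.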

How the data were processed

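RNA counts per gene are as deposited, in the layout of featureCounts with exon coordinates. The RNA libraries came from a directional kit after removal of ribosomal RNA, per the labels' protocols, and the strand setting used in counting was not given in the sources used here. For tools, the submitters' processing notes name HISAT2 2.1.0, featureCounts 1.6.3, MACS2 2.1.1, edgeR 3.22.5 and the builds mm10 and hg38, without the role of each. A count column whose name differs in 1 character from D395A was taken as D395A replicate 1. The deposited peak lists have the narrowPeak layout, with a fold enrichment ratio, a −log10 p, a −log10 q and a summit offset (in bases) for each peak. The smallest deposited values show a threshold of 0.05 on q in the WT list and on p in the D395A list. In the WT list, 2 further columns were not used.

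Genes were kept with filterByExpr (17778 of 52459), scaled by TMM and compared, 2 WT against 2 D395A libraries, with the edgeR 4.0.16 quasi-likelihood test in R 4.3.3. The common dispersion was 0.003 (a coefficient of variation of 5.47%). Counting intervals are exact at 95% and cover counting error only. A peak was given to a gene for an overlap of 1 bp or more (bedtools 2.31.1). Exon overlap came from the count table's coordinates, and a level per kilobase divides CPM by exon length. A replicate ratio used a pseudocount of 0.1 CPM. On simulated counts (17408 genes), 82% of genes with a 1.5-fold change were called, 94% with 2-fold, 98% with 4-fold and 100% with 8-fold, and 6.03% of calls were unaltered genes. Every simulated gene had the common dispersion, and few genes were altered. The D395A replicates differed more than that over the Hox genes, so these shares do not apply to them. Alternatives were DESeq2 1.42.0, upper quartile scaling, other count filters, limma-voom (limma 3.58.1), a replicate block, each library left out, and the removal of genes with opposite-strand overlap. For peaks they were stricter q thresholds, other overlap rules and the same number of top-ranked peaks.

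The naming rule takes 39 Hox genes, of which 1 is not reported here, nor is 1 cofactor. The members and the 11 gene lists were chosen with earlier results of these data known. All other Hox genes were named, with up to 4 called genes of smallest adjusted p from each list, every measured cluster non-coding RNA and the gene nearest each cluster. Meis2, Pbx4, Kmt2a, Kmt2b, Aldh1a2, Aldh1a3, Rdh10, Rarb, Sox2, Pou5f1, Prrx1 and Afp were named after their values were seen. So were the genes of the cluster spans that are in no list. The human peak lists are not analysed here.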

Additional observations from a re-analysis of the deposited data

How the results depend on the processing

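Of 140 fold changes recomputed for the 13 called Hox genes, 133 kept their direction and their side of the threshold, 7 kept the direction only (Hoxb4, Hoxd8 and Hoxa4, given above) and 0 reversed. The count of genes called higher, 7 in the report, was 17 with no count filter, 4 with all genes of opposite-strand exonic overlap left out before the fit and 2 when genes with any opposite-strand overlap or gene over their body were not counted (Hoxa2 and Hoxb1). Leaving out each library in turn gave 6 to 14 higher and 5 to 8 lower, the 14 without D395A replicate 2. Such a fit takes the spread of the lone library from the other group. DESeq2 gave 6 higher and 5 lower, limma-voom 7 and 7. With a replicate block, 11 were higher and 7 lower, the added genes being Hoxc5, Hoxc6, Hoxc8, Hoxc9 and Hoxc10. The labels do not say that the numbers mark a batch, and whether the libraries share one was not tested beyond the correlation of replicate differences between the genotypes, 0.138 over 10100 genes. D395A peaks over Hox genes (2) and over the cluster spans (6) went to 0 at a q of 0.05 and 0 at a q of 0.01. Depth limits what can be said of the 14 untested genes and the folds of Hoxb1 and Hoxb2.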
